A study of Mus musculus with 6 samples.

Results

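The genes described are those of liver-made plasma proteins, the carriers, apolipoproteins, protease inhibitors, clotting factors and complement components that hepatocytes release into the blood. Here they were measured in the antrum, the part of the stomach next to the duodenum. The list holds 49 gene symbols. For 45 of them at least 1 probe carries exactly that symbol in the platform annotation, with 58 probes in all, against 15123 named genes and 30649 features (named genes and unnamed probes) on the array. No probe carries Gc, the vitamin D carrier, Apob, Ahsp or the clotting factor gene F9, so these 4 have no value here. Ahsp, the chaperone of alpha globin in red cell precursors, is no plasma protein, and since it was not measured it affects no value. The genes were chosen because several of them were high in 2 of the 3 animal pairs. Their values are therefore a description, and no p-value below supports them.

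The series set mice homozygous for a germline Kit allele, K641E with the Neo cassette still in place (KitK641E:Neo/K641E:Neo), against KitWT/WT littermates at postnatal day 14. Kit is a receptor tyrosine kinase, and K641E is an oncogenic form of it in a mouse model of gastrointestinal stromal tumours. All cells of the animal carry the allele, and the RNA came from whole antral tissue, so cell types were not separated. A littermate pair was read on 2 arrays with Cy5 and Cy3 swapped, and 3 pairs give 6 arrays and 3 replicates. A value is a log2 ratio, likely mutant over wild type. A gene is given by its 2 arrays of a pair, mutant in Cy5 first, or by their mean, called the pair mean. In bulk tissue, fewer cells of a type and less RNA per cell cannot be told apart. The table holds ratios only, so whether the antrum's own defining genes or those of liver are present at a given level could not be checked.

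Hepatocytes make most proteins of the blood plasma. Albumin holds water in the vessels and binds fatty acids and hormones, apolipoproteins form lipid particles, serpins and inter-alpha-trypsin inhibitors block proteases, and fibrinogen and the vitamin K-dependent factors form clots. Their genes are read mainly in liver, where the HNF1, HNF4, C/EBP and forkhead (FOXA) factors act on them, and several are also read in the intestine, the kidney, the yolk sac or at sites of inflammation. Alpha-fetoprotein, a relative of albumin, is made in fetal liver and yolk sac, and its gene is turned down after birth.

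The members were high together in pairs 2 and 3 and near 0 in pair 1. The median of the 45 members was 1.60 and 1.60 on the arrays of pair 2, 0.93 and 1.03 on those of pair 3, and -0.12 and -0.10 on those of pair 1. The median of all features lay between -0.001 and 0.004 on every array. In pair 2 all 45 members were above 0, in pair 3 42 were, and in pair 1 18 were. Of the 30649 features, 15693 were above 0 in pair 2, 15512 in pair 3 and 15664 in pair 1. A pair mean of 1 or more in each of pairs 2 and 3 was seen for 20 of 45 members, against 0.378% of all features and 0.602% of named genes. Above 0 on all 4 arrays of these pairs were 39 of 45 members, against 14% of features and 18% of named genes. Above 0 on all 6 arrays were 7 members, against 3.87% and 4.97%. In pair 1 only Afp was at 1 or more, against 0.261% and 0.463%. Since these values chose the members, nothing is read from that contrast. Fitting the 3 pair means with limma called 0 of 45 members at an adjusted p of 0.05, where 0.00653% of features were called higher. At an unadjusted 0.05, 6 members were higher and 0 lower, where 2.74% and 2.16% of features were. The lowest limma adjusted p of a member was 0.923. With the 6 arrays fitted and the pair as a random block, limma called 1 member higher, Itih2 (adjusted p 0.0486), where 0.144% of features were called higher. That fit counts the 2 arrays of a pair, which hold the same RNA samples, in part as separate. The median over the mean of 3 pairs was 0.83, which was 1.25 without pair 1 and 0.45 without pair 2.

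**Figure D1:**
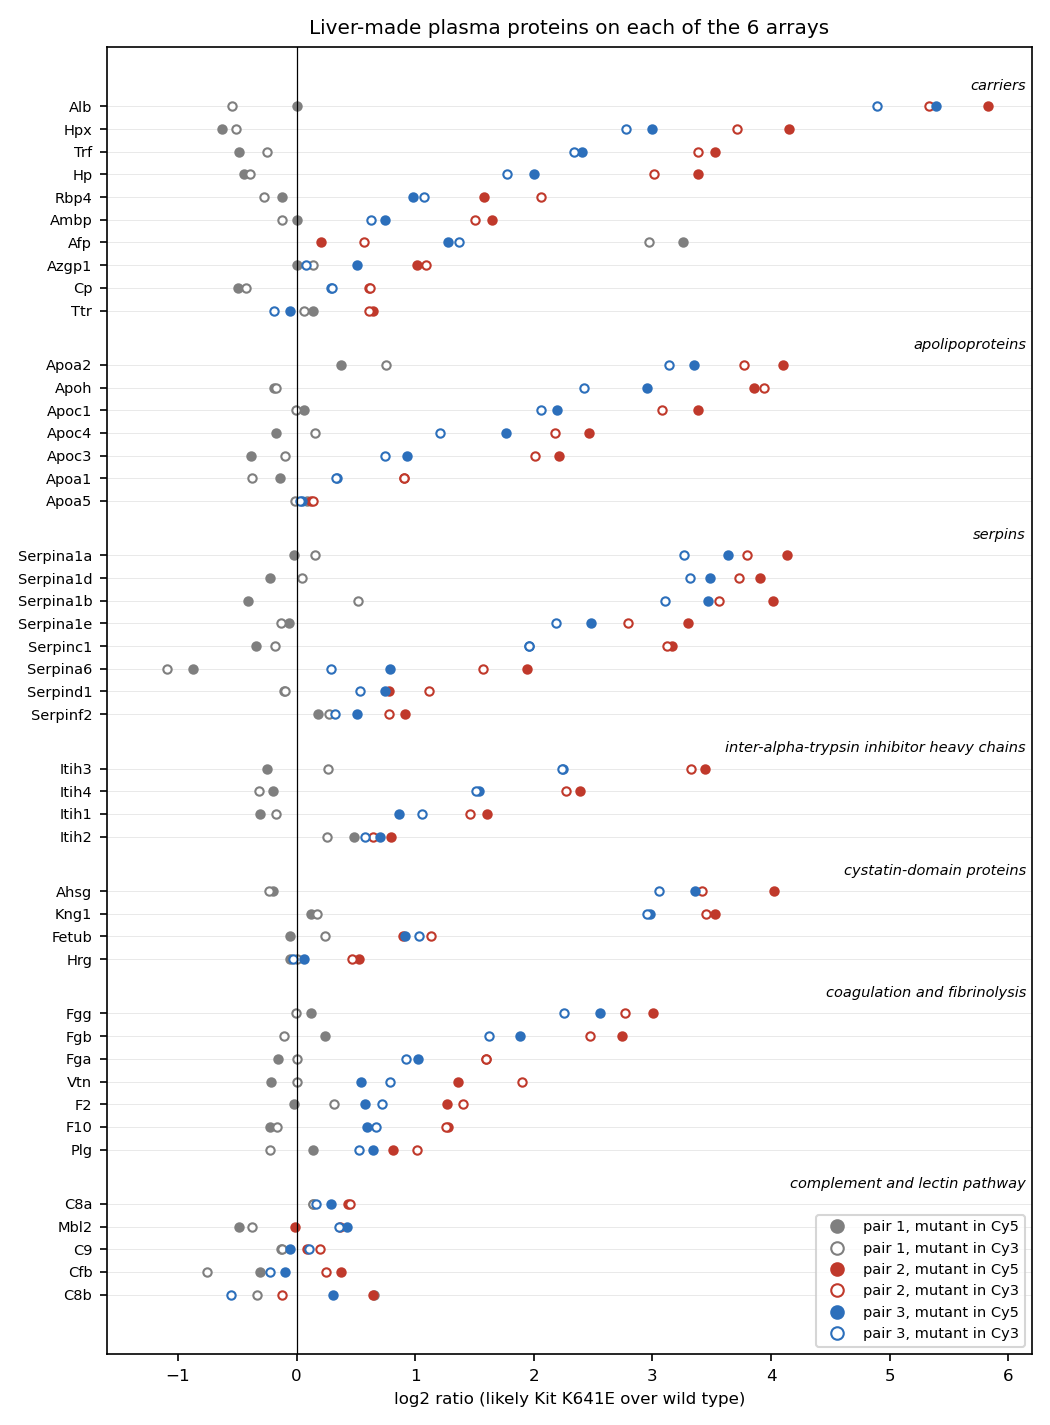
Log2 ratios of the 45 measured members (horizontal axis, likely Kit K641E over wild type) on each of the 6 arrays, grouped by role. Colours mark the pairs, filled points the mutant in Cy5 and open points the mutant in Cy3. Pair 1 lies near 0 for most members, with Afp farthest from it at 3.26 and 2.97, while Alb reaches 5.83 in pair 2.

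The promoters of 1 gene from each role group, the one highest in pairs 2 and 3 among those with a sequence, are shown with that of Afp, whose pattern was the exception. Afp was added after its values were seen. Each window runs from 250 bases before the annotated start of the gene to 50 after it, on the gene's strand, from RefSeq on build GRCm38.p6. The windows are chr5:90460620-90460919 (+) for Alb, chr5:90490464-90490763 (+) for Afp, chr1:171224804-171225103 (+) for Apoa2, chr12:103863570-103863869 (-) for Serpina1a, chr14:30923538-30923837 (-) for Itih3, chr16:22891765-22892064 (+) for Ahsg, chr3:83007474-83007773 (+) for Fgg and chr4:104876349-104876648 (-) for C8a. Capitals mark the HNF1 half-site GTTAAT and the forkhead motif TGTTTNC, on either strand.
Alb: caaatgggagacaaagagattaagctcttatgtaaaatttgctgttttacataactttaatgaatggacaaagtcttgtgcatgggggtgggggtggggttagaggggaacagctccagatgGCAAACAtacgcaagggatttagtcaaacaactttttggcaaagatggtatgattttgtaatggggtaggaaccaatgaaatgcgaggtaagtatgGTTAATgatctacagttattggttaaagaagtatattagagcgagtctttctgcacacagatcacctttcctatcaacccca
Afp: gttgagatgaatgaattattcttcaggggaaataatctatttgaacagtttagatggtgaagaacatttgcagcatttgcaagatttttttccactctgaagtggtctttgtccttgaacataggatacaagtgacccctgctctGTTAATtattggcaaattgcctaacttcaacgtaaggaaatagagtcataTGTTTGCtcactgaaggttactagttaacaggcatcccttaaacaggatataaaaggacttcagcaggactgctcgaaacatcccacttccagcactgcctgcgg
Apoa2: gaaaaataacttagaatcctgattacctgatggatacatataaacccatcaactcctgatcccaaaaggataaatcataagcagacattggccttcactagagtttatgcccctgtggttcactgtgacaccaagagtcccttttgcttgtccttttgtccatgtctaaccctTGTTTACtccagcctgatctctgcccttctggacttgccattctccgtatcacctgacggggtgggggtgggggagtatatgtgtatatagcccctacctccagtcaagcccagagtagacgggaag
Serpina1a: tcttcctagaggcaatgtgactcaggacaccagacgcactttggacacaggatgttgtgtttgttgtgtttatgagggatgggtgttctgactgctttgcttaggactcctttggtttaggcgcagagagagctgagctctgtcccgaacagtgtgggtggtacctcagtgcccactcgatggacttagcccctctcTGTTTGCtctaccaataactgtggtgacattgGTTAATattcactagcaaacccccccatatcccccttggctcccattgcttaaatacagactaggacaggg
Itih3: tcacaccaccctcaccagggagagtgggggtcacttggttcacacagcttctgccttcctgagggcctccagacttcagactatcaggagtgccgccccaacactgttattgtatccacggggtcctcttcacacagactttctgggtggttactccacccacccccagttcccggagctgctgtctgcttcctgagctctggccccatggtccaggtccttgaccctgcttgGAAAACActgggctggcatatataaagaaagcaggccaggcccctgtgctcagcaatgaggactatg
Ahsg: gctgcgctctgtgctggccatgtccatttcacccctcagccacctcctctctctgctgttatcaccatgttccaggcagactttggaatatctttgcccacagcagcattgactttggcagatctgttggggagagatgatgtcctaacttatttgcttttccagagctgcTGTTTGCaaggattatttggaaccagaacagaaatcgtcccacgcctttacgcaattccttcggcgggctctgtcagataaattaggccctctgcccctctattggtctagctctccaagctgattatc
Fgg: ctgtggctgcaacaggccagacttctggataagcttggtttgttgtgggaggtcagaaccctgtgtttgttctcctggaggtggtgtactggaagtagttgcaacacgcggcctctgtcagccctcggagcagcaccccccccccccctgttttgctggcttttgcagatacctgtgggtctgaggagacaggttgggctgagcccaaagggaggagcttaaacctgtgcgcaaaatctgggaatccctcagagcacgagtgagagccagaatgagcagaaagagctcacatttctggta
C8a: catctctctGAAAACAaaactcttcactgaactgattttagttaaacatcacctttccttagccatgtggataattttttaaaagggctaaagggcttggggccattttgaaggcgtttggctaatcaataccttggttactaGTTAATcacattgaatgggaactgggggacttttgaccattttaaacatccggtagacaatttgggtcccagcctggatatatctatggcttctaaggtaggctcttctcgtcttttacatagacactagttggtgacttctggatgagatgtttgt

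These letters were common in the windows of the members. A promoter was found for 36 of the 45 measured members, and 5 of them have several windows, of which the first listed was used. The forkhead motif TGTTTNC stood in 22 of 36 windows (61.1%), against 20.5% of the 27025 mouse promoters of the same table. The HNF1 half-site GTTAAT stood in 14 (38.9%), against 7.20%. The C/EBP motif TTNNGCAAT stood in 5 (13.9%, against 2.18%), the TATA box TATAAA in 8 (22.2%, against 14.2%) and the HNF4 motif CAAAGTCCA in 0 (against 0.477%). The GATA motif AGATAA, searched beside them as a motif of red cell and other lineages, stood in 5 (13.9%, against 11.4%). All motifs were searched on both strands, and in the printed windows no HNF1 half-site overlapped a forkhead motif. The median share of G and C was 48.8% in the members and 52.7% in all promoters. The paralogs Serpina1a, Serpina1b, Serpina1d and Serpina1e each held 1 forkhead motif and 1 HNF1 half-site. Their windows were counted one by one and may not be separate instances. A match is a run of letters and not a site shown to be bound.

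Members with high ratios and the others both held these motifs. The forkhead motif was in 11 of the 16 members that have a promoter here and reached 1 in pair 2 and in pair 3, and in 11 of the other 20. For the HNF1 half-site the counts were 6 of 16 and 8 of 20. The paralogs Serpina1a, Serpina1b, Serpina1d and Serpina1e are all among the 11 of 16 and the 6 of 16. In the printed windows, Alb and Serpina1a hold both motifs, with the half-site starting 32 and 21 bases before the start of the gene. Afp and C8a also hold both, although C8a had pair means of only 0.44 and 0.22 in pairs 2 and 3. Fgg, at 2.89 and 2.41, holds neither.

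Among the carriers, albumin had the highest ratio of any named gene in both pair 2 and pair 3. Alb, the main protein of plasma, had 5.83 and 5.33 in pair 2, 5.39 and 4.89 in pair 3, and 0.01 and -0.55 in pair 1. The arrays of pairs 2 and 3 were at least 4.89 and those of pair 1 did not reach them. On base 2 this is a 47.9-fold difference in pair 2 and a 35.3-fold one in pair 3 (266 and 171 if the deposited values were natural logarithms). The mean over pairs was 3.49 with an SD of 3.26 (n = 3), so the spread between pairs was nearly the size of the mean.

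The other abundant carriers followed the same order of pairs, at lower ratios. Hpx, hemopexin, which binds free haem, had 4.15 and 3.72 in pair 2, 2.99 and 2.78 in pair 3, and -0.63 and -0.51 in pair 1. Trf, transferrin, the iron carrier, had 3.53 and 3.38, then 2.41 and 2.34, and -0.49 and -0.25 in pair 1. Hp, haptoglobin, which binds free haemoglobin, had 3.39 and 3.01, then 2.00 and 1.77, and -0.45 and -0.39 in pair 1. For these 3 genes every array of pair 2 was above every array of pair 3, and both arrays of pair 1 were below 0. Rbp4, the retinol carrier, had pair means of -0.20, 1.82 and 1.03 in pairs 1, 2 and 3. Ambp, which encodes alpha-1-microglobulin and bikunin, had -0.06, 1.57 and 0.69, and Azgp1, zinc-alpha-2-glycoprotein, had 0.07, 1.06 and 0.30. Cp, the copper protein ceruloplasmin, had -0.46, 0.62 and 0.29.

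Afp and Ttr did not follow albumin. Afp, alpha-fetoprotein, had 3.26 and 2.97 in pair 1, 0.21 and 0.57 in pair 2, and 1.28 and 1.37 in pair 3. It was above 0 on all 6 arrays, and its order of pairs was the opposite of Alb at both ends. In pair 1 it ranked 3 among 15123 named genes, where Alb ranked 14070, and in pair 2 it ranked 1174, where Alb ranked 1. In RefSeq's order Afp is the next coding gene after Alb on chromosome 5, with 0 coding genes between them. Ttr, transthyretin, a carrier of thyroid hormone and of retinol-binding protein, had 0.65 and 0.61 in pair 2, -0.05 and -0.19 in pair 3, and 0.13 and 0.06 in pair 1. Its partner Rbp4 had at least 0.98 on all 4 arrays of pairs 2 and 3.

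Some red cell genes were also higher in pair 1. The 6 measured genes of the red blood cell lineage had medians of 0.88, -0.01 and -0.01 in pairs 1, 2 and 3, with 1.09, 0.05 and 0.20 for the anion exchanger gene Slc4a1 and 1.03, -0.05 and -0.34 for the alpha globin gene Hba-a1. Alas2, the first enzyme of haem synthesis in red cells, had 0.73, -0.19 and -0.29. Klf1, a red cell transcription factor, had -0.01, 0.06 and 0.01, and the blood group gene Rhd 0.01, 0.03 and -0.01, so these 2 were near 0 in every pair. Their part in the value of Afp was not tested. Among other fetal liver genes, the growth factor gene Igf2 had 0.37, 1.35 and 0.94, the proteoglycan gene Gpc3 -0.12, 0.20 and -0.37, and Dlk1, which encodes a membrane protein of the Notch ligand kind, -0.81, 0.18 and -0.11. None of these 3 was highest in pair 1.

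Apolipoproteins ranged from among the highest of all members to near 0. Apoa2, a main protein of high-density lipoprotein, had 4.10 and 3.77 in pair 2, 3.35 and 3.14 in pair 3, and 0.38 and 0.76 in pair 1. It was above 0 on all 6 arrays, and the arrays of pair 1 lay well below those of the other pairs. Apoh, beta-2-glycoprotein 1, a binder of phospholipids, had 3.86 and 3.94, then 2.95 and 2.42, and -0.19 and -0.17 in pair 1. Apoc1, an inhibitor of lipoprotein uptake, had pair means of 0.03, 3.23 and 2.13, and Apoc4 had -0.01, 2.32 and 1.49. Apoc3, an inhibitor of triglyceride clearance, had -0.24, 2.12 and 0.84. Apoa1, the other main protein of high-density lipoprotein, had only -0.26, 0.91 and 0.34, and Apoa5, a regulator of triglyceride, 0.03, 0.13 and 0.04. Apoa1 is also read in the intestine. Apoa4, an apolipoprotein made mainly there, had -0.28, 0.09 and -0.59, and the 9 measured small intestine genes had medians of 0.10, 0.03 and -0.03.

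Serpins had the highest role group medians in pairs 2 and 3, with -0.09, 3.10 and 2.14 in pairs 1, 2 and 3. Serpina1a, an alpha-1-antitrypsin, the inhibitor of neutrophil elastase, had 4.14 and 3.80 in pair 2, 3.63 and 3.27 in pair 3, and -0.03 and 0.16 in pair 1. Its paralogs Serpina1b and Serpina1d had pair means of 3.79 and 3.82 in pair 2 and 3.29 and 3.40 in pair 3, and Serpina1e 3.05 and 2.33. The mouse paralogs are nearly identical in sequence, so a probe of 70 bases may bind several of their transcripts and the 4 values may not be separate measurements. Binding across paralogs was not tested. Serpinc1, antithrombin, the inhibitor of thrombin, had -0.26, 3.14 and 1.96. The remaining serpins were lower. Serpind1, heparin cofactor 2, had -0.10, 0.95 and 0.64, and Serpinf2, the inhibitor of plasmin, 0.23, 0.85 and 0.42. Serpina6, the carrier of corticosteroids, had 1.94 and 1.57 in pair 2, 0.79 and 0.29 in pair 3, and -0.87 and -1.09 in pair 1. It was the lowest member in pair 1, ranking 15014 among 15123 named genes.

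The heavy chains of inter-alpha-trypsin inhibitor, some of which are linked to bikunin and bind hyaluronan, differed among themselves. Itih3 had 3.44 and 3.32 in pair 2, 2.24 and 2.24 in pair 3, and -0.25 and 0.27 in pair 1. Itih4 and Itih1 had pair means of -0.26, 2.33 and 1.53, and of -0.24, 1.53 and 0.96. Itih2 had 0.79 and 0.65 in pair 2, 0.70 and 0.57 in pair 3, and 0.48 and 0.26 in pair 1. Its 3 pair means differed least in this group, with a mean of 0.58 and an SD of 0.18 (n = 3), and all 6 arrays were above 0. It was the member with the lowest unadjusted p in the limma fit, and it did not pass there (adjusted p 0.923).

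The proteins with cystatin domains fell into a high and a low set of 2 genes each. Ahsg, fetuin-A, an inhibitor of calcification, had 4.03 and 3.42 in pair 2, 3.36 and 3.06 in pair 3, and -0.20 and -0.23 in pair 1. Kng1, kininogen, the source of bradykinin, had pair means of 0.15, 3.49 and 2.97. Fetub, fetuin-B, an inhibitor of the egg coat protease, had 0.09, 1.02 and 0.98, and Hrg, histidine-rich glycoprotein, -0.03, 0.50 and 0.02. These 4 genes lie in a row on chromosome 16 in RefSeq, with at most 1 other coding gene between neighbours, and their ratios were unlike. Ratios were also unlike on chromosome 9, where Apoa1, Apoc3 and Apoa5 lie together with 0.91, 2.12 and 0.13 in pair 2. In all, 25 of the 49 members lie in 8 such clusters with no more than 5 other coding genes between neighbours, and 24 of the 25 were measured. Some neighbours had closer ratios. On chromosome 12, the paralogs Serpina1b, Serpina1d and Serpina1a had 3.79, 3.82 and 3.97 in pair 2. In the same cluster Serpina1e had 3.05 and Serpina6 had 1.76, so that cluster as a whole was unlike too. On chromosome 4, C8b and C8a had 0.26 and 0.44 in pair 2.

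Clotting genes were led by fibrinogen. The 3 chains of this clot protein are assembled in equal numbers and their genes are neighbours on chromosome 3. Fgg had 3.00 and 2.77 in pair 2, 2.56 and 2.26 in pair 3, and 0.12 and -0.002 in pair 1. Fgb had 2.74 and 2.47, then 1.88 and 1.63, and 0.24 and -0.11 in pair 1. Fga had 1.59 and 1.60, then 1.02 and 0.93, and -0.16 and 0.002 in pair 1. Each chain was higher on every array of pair 2 than on any of pair 3, and the order Fgg, Fgb, Fga was the same in both pairs. Vtn, vitronectin, an adhesion protein that also steadies a plasminogen activator inhibitor, had -0.11, 1.63 and 0.67. Among zymogens, F2, prothrombin, had 0.15, 1.34 and 0.65, F10 -0.20, 1.27 and 0.63, and Plg, plasminogen, -0.05, 0.91 and 0.58.

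Complement genes had the lowest medians of the role groups in pairs 2 and 3. The 5 measured genes of complement and the lectin pathway had medians of -0.13, 0.26 and 0.02, and 0 of them reached 1 in any pair. C8a, a subunit of the membrane attack complex, had 0.14, 0.44 and 0.22, and C9, the pore-forming subunit, -0.13, 0.14 and 0.02. Mbl2, a mannose-binding lectin, had -0.43, 0.18 and 0.39, and Cfb, factor B of the alternative pathway, -0.53, 0.31 and -0.16. C8b, another subunit of the attack complex, followed the dye and not the pair. It had 0.65, 0.65 and 0.30 with the mutant in Cy5 and -0.33, -0.12 and -0.55 with the mutant in Cy3. Its dye difference of 0.87 was the largest of the 45 members, and that of Alb, 0.52, came next.

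**Figure D2:**
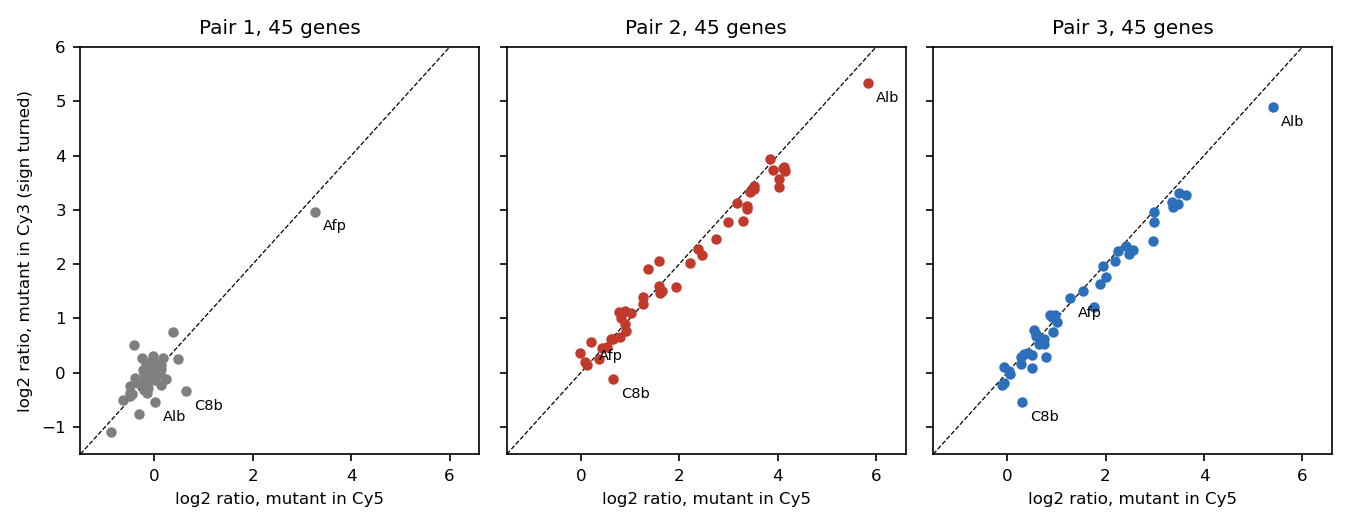
Log2 ratio of each of the 45 members with the mutant in Cy5 (horizontal axis) and with the mutant in Cy3 after turning the sign (vertical axis), one panel for each pair. The dashed line marks equal values. In pairs 2 and 3 the members lie along the line, with C8b below it. In pair 1 most gather near 0, with Afp farthest from it and Serpina6 lowest, at -0.87 and -1.09.

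In pairs 2 and 3 the 2 arrays of a pair ordered the members alike, and in pair 1 less so. Across the 45 members they correlated at r = 0.99 in pair 2, 0.99 in pair 3 and 0.86 in pair 1. The last rests on Afp, and was 0.52 over the 44 members without it. Over all 30649 features r was 0.74 in pair 2, 0.84 in pair 3 and 0.60 in pair 1. The members were chosen for high values in pairs 2 and 3, so nothing is read from the difference. The 2 arrays hold the same 2 RNA samples. In pair 1, 18 members had opposite signs on the 2 arrays, against 2 in pair 2 and 3 in pair 3. Also in pair 1, 35 of the 45 pair means lay within 0.3 of 0, 7 below and 3 above. These counts were not made over all features, so whether they are particular to the members was not tested.

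For 13 members several probes could be set side by side. In 9 of the 13 their pair means differed by under 0.6 in both pairs 2 and 3, among them Apoa2, where the 2 probes differed by 0.07 in pair 2. In pair 1 the probes of Apoa2 differed by 0.845. One had 0.657 and 1.319 there and the other 0.095 and 0.191. In 4 they differed by over 1 in pair 2. These were Cp, with a gap of 1.98, Hp with 1.28, Plg with 1.26 and Itih4 with 1.05. One probe of Cp had -0.38 and -0.37 in pair 2 and the other 1.60 and 1.61, so the mean of 0.62 describes neither.

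Pairs 2 and 3 ranked the members alike, with lower ratios in pair 3. The correlation of pair 2 with pair 3 was r = 0.95 over the 45 members and 0.45 over all 30649 features. Members and features are not independent replicates. Because the members were chosen for high values in these same 2 pairs, nothing is read from the higher r. All 30 members at 1 or more in pair 2 were lower in pair 3, by a median of 0.78. These 30 were picked by their values in pair 2, which favours lower values in pair 3, so nothing is read from that count. The smallest gap was that of Fetub, 0.04, and the largest that of Hp, 1.31. Over all 45 members, 43 were lower in pair 3, and Afp and Mbl2 were higher. Of the 30649 features, 16241 were lower in pair 3. Pair 3 differed from pair 2 in a further way. The Y-linked genes Eif2s3y and Kdm5d had -5.06 and -1.95 in pair 3, -0.05 and -0.15 in pair 2, and -0.03 and 0.22 in pair 1. Uty, also Y-linked, had -0.47 in pair 3. The 2 animals of pair 3 therefore likely differed in sex, so genotype and sex cannot be told apart in that pair. The part of that difference in the ratios of pair 3 was not tested.

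**Figure D3:**
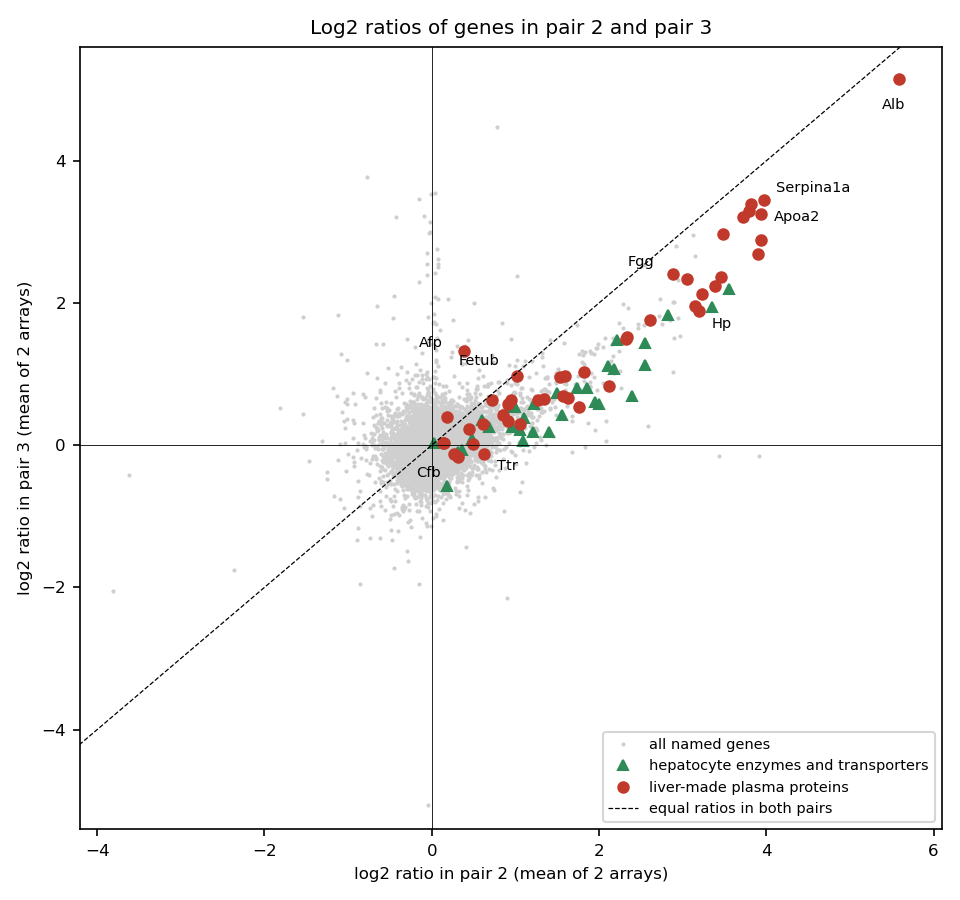
Pair means of the log2 ratio in pair 2 (horizontal axis) and pair 3 (vertical axis) for all 15123 named genes (grey), the 45 members (red circles) and 31 hepatocyte enzymes and transporters (green triangles). The dashed line marks equal ratios, and 43 of 45 members and 30 of 31 enzymes lie below it, where 7949 of the named genes do.

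Enzymes and transporters that stay inside hepatocytes were high in the same pairs, at lower ratios. The 31 measured had medians of -0.01, 1.41 and 0.55, against -0.08, 1.63 and 0.97 for the members. All 31 were above 0 in pair 2, and 8 were at 1 or more in both pairs 2 and 3. Cyp2e1, a cytochrome P450, had -0.52, 3.56 and 2.20, Mat1a, which makes S-adenosylmethionine in liver, 0.01, 3.35 and 1.95, and Arg1, arginase of the urea cycle, 0.52, 2.83 and 1.83. At the other end, Dpys, an enzyme of pyrimidine breakdown, had 0.00, 0.02 and 0.03, and Fah, of tyrosine breakdown, -0.47, 0.18 and -0.58. Between pairs 2 and 3 the enzymes correlated at r = 0.92. Of the 21 enzymes at 1 or more in pair 2, 21 were lower in pair 3, by a median of 1.06, against 0.78 for the members. These enzymes too were picked by their values in pair 2, which favours lower values in pair 3. Whether the lists differ was not tested.

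Other plasma proteins of the liver, not on the list of members, were lower on the whole. The 46 measured had medians of -0.09, 0.47 and 0.25, and 8 of the 46 were at 1 or more in both pairs 2 and 3. Igfbp1, a binding protein of insulin-like growth factors, had -0.26, 3.23 and 2.19, Apof -0.37, 2.97 and 1.54, and Apcs, serum amyloid P, -0.53, 2.76 and 1.70. Hgfac, the activator of hepatocyte growth factor, had 0.18, -0.39 and -0.22, and Pon3, a paraoxonase, -0.01, -0.35 and -0.33. The members were picked because several are high in these pairs, so the medians of the lists cannot be compared as like with like.

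Liver transcription factors and other liver cell types showed smaller ratios. The 15 factors and nuclear receptors had medians of 0.11, 0.02 and 0.05 and none at 1 or more, from Creb3l3 with 0.04, 0.44 and 0.27 to Foxa3 with 0.18, -0.40 and -0.35. The 6 measured Kupffer cell genes, those of liver macrophages, had -0.22, 0.27 and 0.13, with -1.13, 1.81 and 0.91 for the scavenger receptor gene Marco and 0.22, 0.40 and 0.28 for Clec4f. The 5 sinusoidal endothelium genes had -0.11, 0.13 and -0.02, with 0.94 and 0.85 in pairs 2 and 3 for the Fc receptor gene Fcgr2b and 0.03 and -0.02 for Stab2. The 5 stellate cell genes had 0.00, 0.01 and -0.05. The 5 bile duct genes, some of which gastric epithelium also reads, had 0.40, -0.49 and 0.24. Of 10 receptors that take up plasma proteins, 0 reached 1 in any pair, and Asgr1, the asialoglycoprotein receptor of hepatocytes, was highest in pairs 2 and 3 with -0.18, 0.99 and 0.56.

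**Figure D4:**
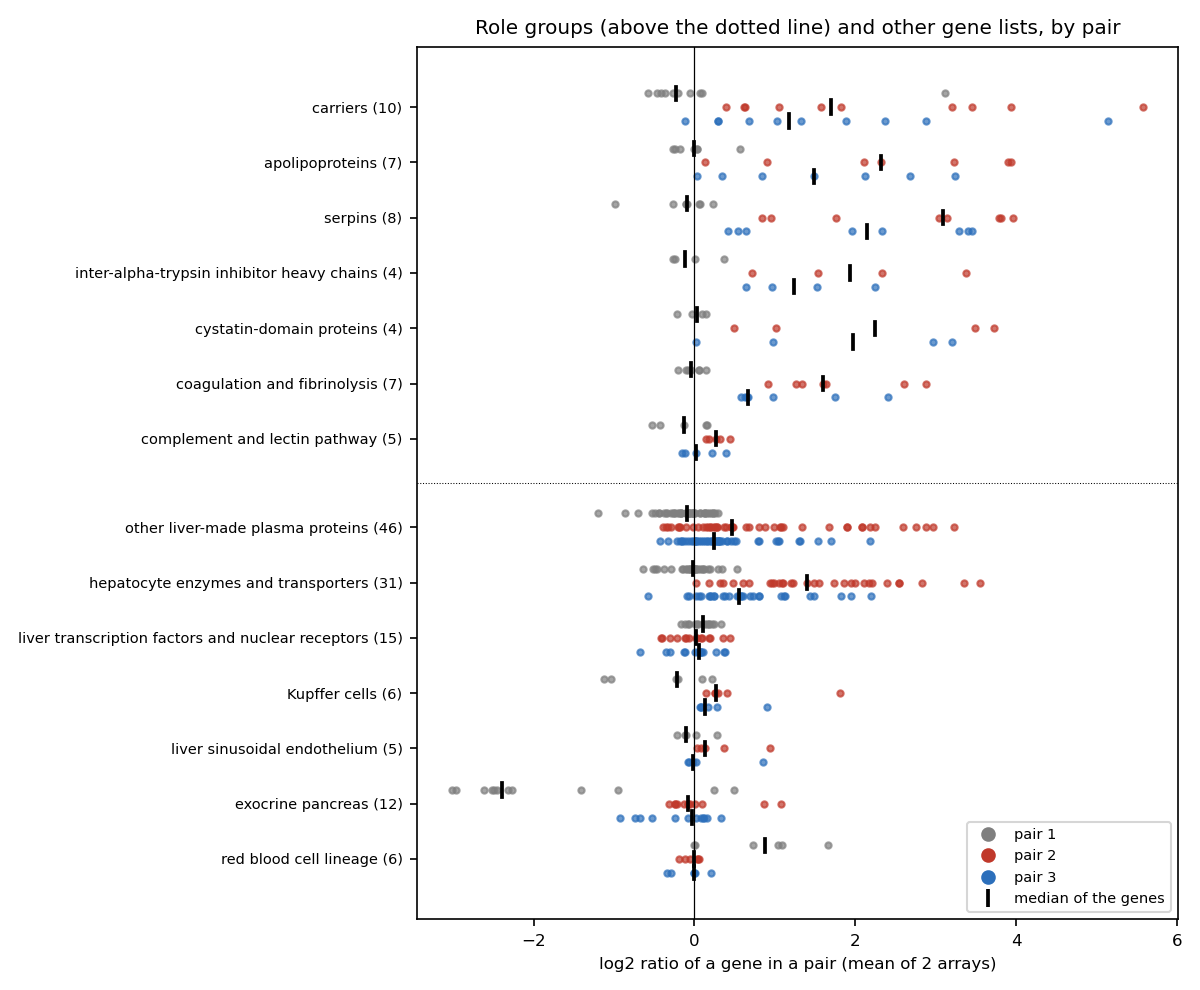
Pair means of the log2 ratio (horizontal axis) for the genes of each role group (above the dotted line) and of other gene lists (below it), with the number measured in brackets. Points are genes, colours are pairs and black bars are medians. Among the role groups serpins have the highest medians in pairs 2 and 3 (3.10 and 2.14) and complement genes the lowest (0.26 and 0.02). Hepatocyte enzymes have a median of 1.41 in pair 2, and 10 of 12 exocrine pancreas genes lie below 0 in pair 1 (median -2.39).

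Genes of other tissues and cells also differed between pairs. The 12 exocrine pancreas genes had medians of -2.39, -0.08 and -0.03, with -3.02 in pair 1 for the carboxypeptidase gene Cpa1. The 8 genes of the interstitial cells of Cajal had medians of 0.24, 1.89 and 0.88, in the same order of pairs as the members. Kit itself had -0.02, 1.89 and 0.81. At 1 or more were 7 of the 8 in pair 2 and 3 in pair 3, where 336 and 218 of the 30649 features were. Prkcq was highest with 1.46, 3.14 and 2.66, while Thbs4 had 0.525, 1.04 and 0.29. Ano1 was below 0 in every pair, with -0.07, -0.17 and -0.08. The 7 genes of antral epithelium had 0.23, 0.03 and -0.36, and 7 fat genes -0.06, 0.07 and 0.21. The part of any of these in the ratios of the members was not tested.

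The members, chosen for high values in these pairs, were ranked among all named genes by the lowest of the 4 arrays of pairs 2 and 3. They were 8 of the first 10, 14 of the first 20, 18 of the first 50 and 22 of the first 100. At 1 or more in both pairs were 91 named genes (0.602%), of which 20 were members, which is 22.0% of the 91 and 44.4% of the 45. A further 16 of the 91 were hepatocyte enzymes or other liver-made plasma proteins, and 52 were in none of the lists. Rbp4, at 1.82 and 1.03, was the member just inside that threshold, and Fetub, at 1.02 and 0.98, the one just outside it.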

How the data were processed

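The authors deposited 1 table of log2 ratios for 38467 probes on 6 arrays, with 0 missing values. Base 2 is an inference from the values: the highest, 5.831, exceeds 4.82, the most that log10 ratios allow when brightness ends at 65535, while natural logarithms remain possible. Array medians lay within 0.004 of 0, so the arrays were already centred. The background correction and normalization steps are not given here. Per the labels' protocols, antral total RNA was amplified with aminoallyl nucleotides, dye-labelled and applied to probes of 70 bases. Array brightness was not used here, so the precision that can be stated is limited by the number of pairs, 3.

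Ratios were read as red over green, an order no source used here states, so arrays whose mutant carried Cy3 had their sign turned. The direction is therefore called likely. Probes of a gene, named from the platform annotation (59.6% of probes), were averaged, then the 2 arrays of a pair. The 3 pair means were fitted against 0 with limma 3.58.1 (R 4.3.3) over 30649 features with Benjamini-Hochberg adjustment, without a filter. The fit was tested on simulated data with known changes. Per the labels, the 3 pairs are biological replicates of littermates.

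The members and gene lists were chosen with earlier results of these data known. All measured members are named, with up to 3 highest and 2 lowest genes of other lists by the mean of pairs 2 and 3. The cells and tissues listed were searched as markers only, with no set test. Alternatives covered centring, scaling, probe averaging, dye orientation, membership, left-out pairs, direction and a random pair block.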

Additional observations from a re-analysis of the deposited data

Results flagged for a closer look

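Over the 6 arrays, 65 results (45 members, list medians and 3 further genes) were searched for a single array standing apart, which 2 results had. Chance marks about 1 in 20 groups of independent samples, and the 2 arrays of a pair are not independent. The median of the stellate cell list lay at 0.11 on the array of pair 2 with the mutant in Cy3, above the other 5 arrays. The median of the small intestine list lay at -0.13 on the array of pair 3 with the mutant in Cy5, below the other 5. No member had such an array.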

How the results depend on the processing

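The member medians in pairs 1, 2 and 3 and the count of members at 1 or more in both pairs 2 and 3 kept their direction, and moved by less than the spread between pairs (a count by less than 1.5 times), under centring, scaling, probe averaging, either dye orientation and the leaving out of members that stomach, intestine or immune cells also express. The same held without Afp, an alternative chosen after seeing the data. The count ran from 17 to 22 genes, or 29 of 58 probes when each probe stood on its own. With the sign of every ratio turned, the medians were 0.078, -1.63 and -0.97, the median over 3 pairs was -0.83 and the count was 0. Leaving out Ahsp changed nothing, since it was not measured. With 1 pair left out, the median over the remaining pairs ran from 0.45 to 1.25.

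Over all features limma called 2 higher and 0 lower, and 0 and 2 with the sign turned. It called 0 higher with arrays scaled, with each probe on its own, with arrays of mutant Cy5 alone and without any 1 pair (from 0 to 0), and 1 with arrays of mutant Cy3 alone. With the 6 arrays fitted and the pair as a random block it called 44 higher and 17 lower, among them 1 member, Itih2 (limma adjusted p 0.0486). That fit took 1 correlation, 0.33, between the 2 arrays of a pair for all features. It thus counts arrays of the same RNA samples in part as separate. The cause of the higher counts was not tested. How far each probe stood above background was not analysed here, and a dim probe gives a ratio nearer to 0.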

Other observations

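Acute-phase genes of the liver, which hepatocytes read strongly during inflammation, were named after their values were seen. Saa1, serum amyloid A, had 2.73 and 2.45 in pair 2, 0.18 and 0.37 in pair 3, and 0.19 and -0.40 in pair 1. Saa2 had pair means of 0.07, 2.09 and 0.05 in pairs 1, 2 and 3. Both were at 1.9 or more on each array of pair 2 and under 0.4 on every other array. Orm1, orosomucoid, had -0.86, 2.89 and 1.04. Hp, a member that is also an acute-phase protein, had the largest gap between pairs 2 and 3 of the members, 1.31, and kept 1.89 in pair 3. Its gap was close to those of Apoc3 (1.28), Serpina6 (1.22) and Apoh (1.21). The 2 probes of Hp differed by 1.28 in pair 2 and by 0.67 in pair 3.

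Of the 15 named genes that are no members and had the highest lowest value on the 4 arrays of pairs 2 and 3, 4 are in the liver lists (Cyp2e1, Igfbp1, Mat1a) or the interstitial cell list (Prkcq). Retnla, a resistin-like protein, was high in all 3 pairs with 2.68, 2.92 and 2.80, unlike Alb. Pck1, an enzyme of glucose synthesis in liver, kidney and fat, had -0.61, 2.89 and 2.01, and Sult2a2, a sulfotransferase, -0.69, 2.95 and 1.79. Ntsr1, a neurotensin receptor, had 0.83, 3.12 and 2.96.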
